A study of Mus musculus with 6 samples.

Results

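The smooth muscle contractile genes described here are 10 genes chosen by symbol from the 28601 genes of the deposited table: Acta2, Actg2, Myh11, Mylk, Tagln, Cnn1, Lmod1, Smtn, Des and Synpo2. They were chosen with earlier results of these libraries in view, among them the level of Acta2 in 1 Cys52Ser library, so their levels are given as a description. All 10 were in the table, and all 10 were among the 18648 genes that passed the filter on low counts.

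RNA was sequenced from liver of male mice, 3 with PRDX1 Cys52Ser and 3 WT. PRDX1 is a peroxide-reducing enzyme, and Cys52 is the cysteine that reacts with the peroxide; the mutant carries serine there. The labels give neither the strain nor the zygosity. Both groups were 8 weeks old when they were put on CDAHFD (a high-fat diet of amino acids without choline, which gives mice fatty liver and fibrosis), and all were kept on it for 8 weeks per the titles. No group on another diet entered the comparison. The treatment labels give other times for 5 of the 6 mice: 11, 12 and 13 weeks for the Cys52Ser mice and 8, 9 and 10 weeks for the WT mice. If those are the true times, genotype and time on diet cannot be told apart.

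Smooth muscle contracts when myosin light chain kinase phosphorylates the light chain of smooth muscle myosin, which then pulls on filaments of smooth muscle actin; calponin, transgelin, smoothelin and leiomodin bind these filaments, and desmin and synaptopodin 2 link them to the rest of the cell. In liver these proteins are found in the walls of arteries and veins, and Acta2 is also the classic marker of myofibroblasts, which arise from hepatic stellate cells and portal fibroblasts in fibrosis. Many genes of this programme are switched on by serum response factor, which binds the CArG box, together with the coactivator myocardin or its relatives.

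The promoter of Acta2 is shown because Acta2 is the gene for which 1 library was singled out, and because its window was the one that held CArG-like boxes. RefSeq windows of 300 bases, 250 before and 50 after the transcription start (GRCm38.p6), were matched for 7 of the 10 genes, all but Tagln, Myh11 and Actg2. The Acta2 window lies at chr19:34255324-34255623 on the minus strand. Capitals mark 2 boxes that match the CArG box with 1 inner base changed to G or C.
Acta2: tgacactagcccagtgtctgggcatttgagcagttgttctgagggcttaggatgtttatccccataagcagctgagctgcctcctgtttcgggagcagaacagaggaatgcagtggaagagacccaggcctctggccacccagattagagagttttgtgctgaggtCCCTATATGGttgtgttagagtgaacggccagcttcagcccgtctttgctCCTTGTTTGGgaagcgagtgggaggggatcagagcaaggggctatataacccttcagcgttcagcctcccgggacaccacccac
The first box runs from 84 to 75 bases before the start, and the second from 34 to 25 bases before it. These distances count from the start of the RefSeq window, and no other start was tried. A CArG box searched on both strands without a change was in 0 of the 7 windows, against 1.63% of 32851 windows of the same length in the RefSeq table. With 1 inner base changed it was in 1 of the 7, against 9.98% of all windows. The letters TATAAA, searched on the sense strand, were in 0 of the 7 windows, against 8.32% of all windows. Only these exact letters were counted, and the Acta2 window holds the near form tatataa.

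The 6 libraries held totals of 53318196 to 73900923 estimated counts, and albumin took 8.08% to 8.49% of them in Cys52Ser livers and 3.60% to 5.55% in WT livers. TMM factors, which correct for such differences in composition, were 0.814 to 0.963 in Cys52Ser and 1.05 to 1.21 in WT, so values scaled with and without them differ between the genotypes. Prdx1 RNA was measured at 859, 661 and 819 CPM (counts relative to library size, after TMM scaling) in the 3 Cys52Ser libraries, against 864, 920 and 978 CPM in the 3 WT libraries; a single-residue change is not visible in gene counts. Below, values per library are in CPM on this scale and in the order of replicates 1, 2 and 3.

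In TMM-scaled CPM all 10 genes were at their highest in the same library, Cys52Ser replicate 2, as 8 of them were in FPKM, and the excess in CPM ran from 8.15-fold over the highest of the other 5 libraries for Actg2 to 1.09-fold for Mylk. That library was the highest of the 6 for 14.7% of all tested genes, and it lay at least 2-fold above each of the other 5 for 7 of the 10 genes and for 2.88% of all tested genes. On scales without TMM factors (FPKM, or CPM by library totals) it was the highest for 8 of the 10, all but Smtn and Mylk, and at least 2-fold above the others for 6. The shares over all tested genes were not counted on these scales. Since the genes were chosen with this library in view, these counts are descriptions. Cys52Ser replicate 3 was the lowest of the 6 libraries for 9 of the 10, all but Mylk, on each of the 3 scales. How often it was the lowest over all tested genes was not counted. It had the fewest genes with a count, 21516, against 22926 to 23865 in the other libraries. In bulk liver RNA, a difference in the number of contractile cells and a difference in RNA per cell cannot be told apart. Epithelial genes of the stomach were also high in Cys52Ser replicate 2 (values are given with the marker lists). The 7 stomach gland genes were listed after their values were seen. They summed to 102, 1141 and 0.332 FPKM in Cys52Ser livers, against 90.9, 88.0 and 168 FPKM in WT livers. The sum was thus small in Cys52Ser replicate 3 alone. Whether tissue other than liver was in any of the samples was not tested. Every value, group mean and fold change carries this limit, also those fitted without Cys52Ser replicate 2.

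**Figure D1:**
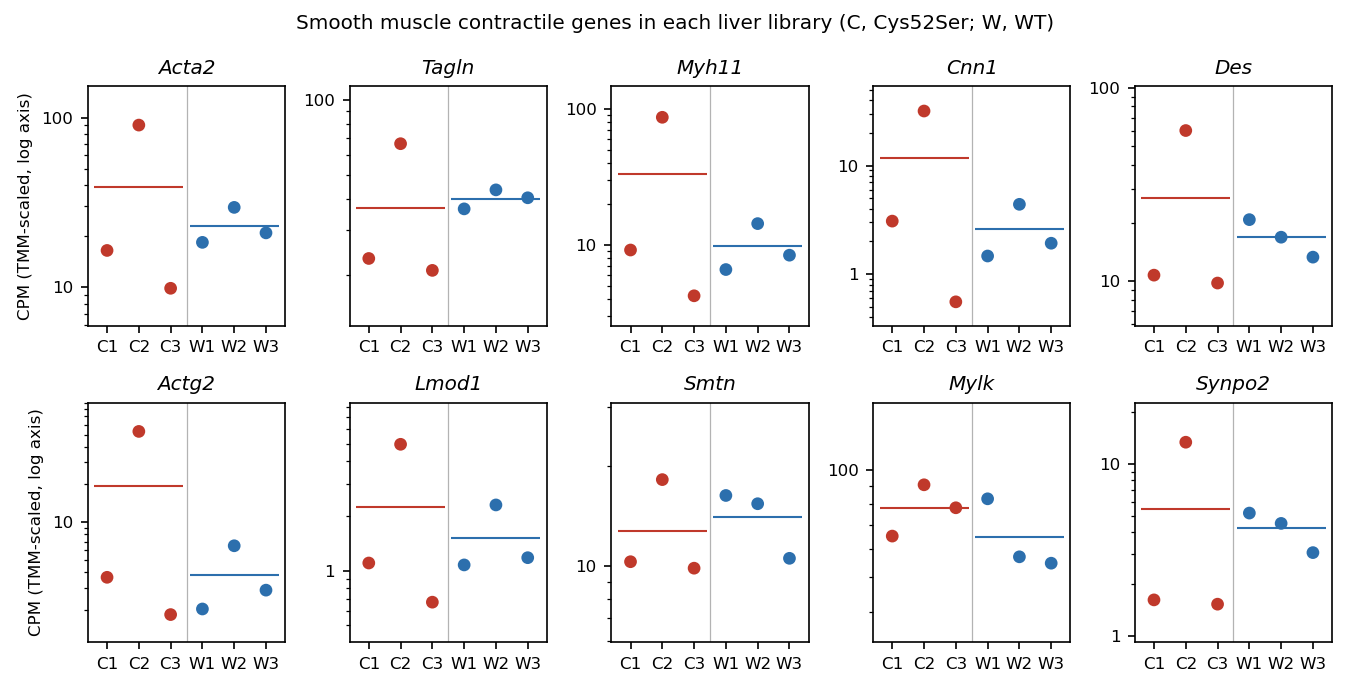
Level of each contractile gene in each library, as TMM-scaled CPM on log axes, with Cys52Ser replicates 1 to 3 (C1 to C3, red) left of WT replicates 1 to 3 (W1 to W3, blue) and a line at each group mean. In all 10 panels C2 is the highest point, as it is for 8 genes (not Smtn and Mylk) in FPKM; it stands at 90.4 CPM for Acta2 and 52.9 CPM for Actg2, and C1 and C3 are below the lowest WT point for Acta2, Tagln, Des, Smtn and Synpo2.

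Among the actins, Acta2, which encodes the alpha actin of vascular smooth muscle and myofibroblasts (ENSMUSG00000035783, chr19:34241090-34255590, minus strand, GRCm38), stood at 16.5, 90.4 and 9.86 CPM in Cys52Ser livers and at 18.4, 29.6 and 20.9 CPM in WT livers. Cys52Ser replicate 2 lay 3.06-fold above the highest other library, while the other 2 Cys52Ser livers lay below every WT liver. The group means were 38.9 ± 44.7 CPM in Cys52Ser and 23.0 ± 5.86 CPM in WT (SD, n = 3 each). Actg2 encodes the gamma actin of visceral smooth muscle, as in the wall of the gut (ENSMUSG00000059430, chr6:83512905-83536265, minus strand). It was at 3.64, 52.9 and 1.84 CPM in Cys52Ser livers, against 2.04, 6.49 and 2.88 CPM in WT livers. Cys52Ser replicate 2 exceeded the WT mean 13.9-fold for Actg2 and 3.94-fold for Acta2. Of the other Cys52Ser values of Actg2, 1 lay inside the WT range and 1 below it, and WT replicate 2 was the highest WT library for both actins. The coding sequences of Acta2 and Actg2 are 84.2% identical and share no run longer than 29 bases, so a read of 150 bases from the coding sequence of one does not match the other in full.

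Between the actins, the ratio of Actg2 to Acta2, both per length as FPKM, was 0.311, 0.826 and 0.263 in Cys52Ser livers, against 0.155, 0.309 and 0.192 in WT livers. In Cys52Ser replicate 2 the visceral form was thus nearly as abundant per length as the vascular form, with 28.9 FPKM for Actg2 and 34.9 FPKM for Acta2. In the 3 WT livers Acta2 averaged 10.4 ± 2.70 FPKM and Actg2 2.42 ± 1.53 FPKM (SD, n = 3).

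The motor and its kinase differed in how far they stood out. Myh11, the heavy chain of smooth muscle myosin (ENSMUSG00000018830, chr16:14194535-14291372, minus strand), was at 9.19, 87.3 and 4.23 CPM in Cys52Ser livers and at 6.60, 14.4 and 8.42 CPM in WT livers. Its level in Cys52Ser replicate 2 was 6.07-fold above the next library and 8.90-fold above the WT mean, and the other 2 Cys52Ser values lay on either side of the WT minimum. Mylk, myosin light chain kinase, whose locus also yields non-muscle forms (ENSMUSG00000022836, chr16:34745210-35002420, plus strand), was at 65.2, 90.7 and 78.2 CPM in Cys52Ser livers, against 82.9, 57.0 and 54.7 CPM in WT livers. The groups overlapped, and Cys52Ser replicate 2 was 1.09-fold above WT replicate 1. The group means were 78.0 ± 12.8 CPM in Cys52Ser and 64.9 ± 15.6 CPM in WT (SD, n = 3 each).

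Next came the proteins that sit on the actin filament. Tagln, transgelin or SM22 (ENSMUSG00000032085, chr9:45929619-45936058, minus strand), was at 23.2, 66.7 and 20.8 CPM in Cys52Ser livers and at 36.6, 43.6 and 40.5 CPM in WT livers. Its WT values lay close together, at 40.2 ± 3.50 CPM (SD, n = 3), with 1 Cys52Ser library above all of them and the other 2 below. Cnn1, calponin 1, which inhibits the myosin ATPase (ENSMUSG00000001349, chr9:22099216-22109630, plus strand), was at 3.07, 31.8 and 0.555 CPM in Cys52Ser livers, against 1.47, 4.39 and 1.92 CPM in WT livers. The Cys52Ser libraries thus held both the highest and the lowest Cnn1 level of the series, and replicate 2 lay 7.23-fold above the highest other library. Behind these values stood 201, 1725 and 29 estimated counts in Cys52Ser livers and 116, 267 and 111 in WT livers.

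Lmod1, leiomodin 1, which nucleates actin filaments (ENSMUSG00000048096, chr1:135324807-135368065, plus strand), was at 1.10, 4.97 and 0.670 CPM in Cys52Ser livers, against 1.07, 2.30 and 1.18 CPM in WT livers. Only Cys52Ser replicate 2 lay above the WT range of Lmod1, by 2.16-fold over WT replicate 2. Smtn, smoothelin, a protein of contractile stress fibres (ENSMUSG00000020439, chr11:3517523-3540612, minus strand), was at 10.3, 18.2 and 9.88 CPM in Cys52Ser livers, against 16.3, 15.4 and 10.6 CPM in WT livers. Cys52Ser replicate 2 exceeded WT replicate 1 by 1.12-fold in CPM, and in FPKM it did not, with 3.52 in Cys52Ser replicate 2 against 3.99 in WT replicate 1.

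Of the linker proteins, Des, desmin, the intermediate filament of muscle that hepatic stellate cells of rodents also make (ENSMUSG00000026208, chr1:75360329-75368579, plus strand), was at 10.7, 60.1 and 9.76 CPM in Cys52Ser livers and at 20.8, 16.9 and 13.3 CPM in WT livers. Synpo2, synaptopodin 2 or myopodin, an actin-bundling protein (ENSMUSG00000050315, chr3:123076519-123236096, minus strand), was at 1.62, 13.3 and 1.53 CPM in Cys52Ser livers, against 5.17, 4.51 and 3.05 CPM in WT livers. Both had 1 Cys52Ser library above all WT livers, 2.89-fold over the highest other library for Des and 2.58-fold for Synpo2, and both had the other 2 Cys52Ser libraries below all WT livers. Tagln, Des, Lmod1, Smtn, Mylk and Synpo2 overlap genes annotated on the opposite strand, and Synpo2 also 3 gene models on its own strand; no source used here says if the strand was used in counting, so their values may hold reads of those genes. Acta2, Actg2, Myh11 and Cnn1 overlap no other annotated gene.

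Per length, the order of the 10 genes in WT livers was Tagln at 20.2 ± 1.71 FPKM, Acta2 at 10.4 ± 2.70, Mylk at 5.82 ± 1.84, Des at 4.57 ± 1.35, Smtn at 3.25 ± 0.927, Actg2 at 2.42 ± 1.53, Myh11 at 1.28 ± 0.536, Cnn1 at 0.937 ± 0.580, Lmod1 at 0.383 ± 0.175 and Synpo2 at 0.327 ± 0.107 FPKM (SD, n = 3). Tagln and Acta2 were each above the next gene in every WT library value, whereas from Mylk down each neighbouring pair overlapped. In Cys52Ser replicate 2 the order was another one, with Acta2 at 34.9, Actg2 at 28.9 and Tagln at 28.5 FPKM, then Des at 13.6, Cnn1 at 9.85, Myh11 at 9.75, Mylk at 6.84, Smtn at 3.52, Lmod1 at 1.07 and Synpo2 at 0.862 FPKM. Actg2 held the second place in that library and the sixth in the WT mean, and Cnn1 and Myh11 lay above Mylk and Smtn there and below them in WT. The summed FPKM of the 10 genes was 27.2, 138 and 21.1 in Cys52Ser livers, against 50.3, 57.4 and 41.2 in WT livers, so the other 2 Cys52Ser sums lay below all WT sums.

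The 10 genes did not stand out to the same extent in that library. Per length, Myh11 over Tagln was 0.104, 0.342 and 0.0532 in Cys52Ser livers, against 0.0471, 0.0861 and 0.0542 in WT livers. Cnn1 over Tagln was 0.0957, 0.346 and 0.0194 in Cys52Ser livers, against 0.0288, 0.0728 and 0.0340 in WT livers. Both ratios were highest in Cys52Ser replicate 2. Ranked among all 18648 tested genes by how far that library exceeded the others, Actg2 was at place 50, Cnn1 at 78, Myh11 at 126, Acta2 at 312, Des at 337, Synpo2 at 388, Lmod1 at 493, Tagln at 853, Smtn at 1773 and Mylk at 1899. The median excess of the 10 genes was 1.44 on the log2 CPM scale (with a prior count of 2), and that of all tested genes was -0.35.

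**Figure D2:**
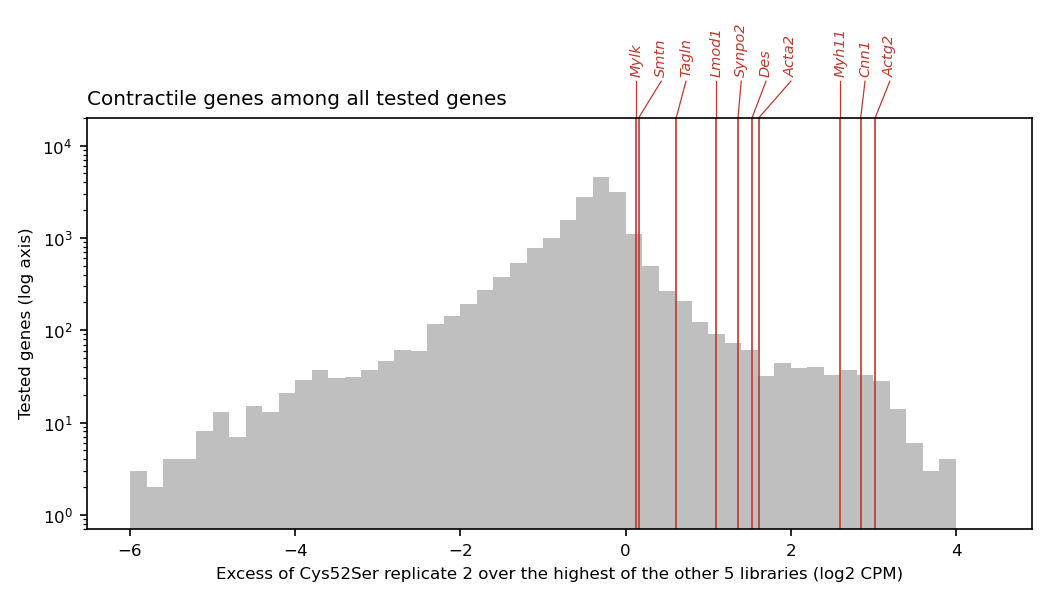
Histogram of all 18648 tested genes by the level of Cys52Ser replicate 2 minus the highest of the other 5 libraries (log2 CPM, x axis; number of genes on a log y axis), with a red line for each contractile gene. All 10 lines lie right of 0 (in FPKM Smtn and Mylk are not highest in that library), from Mylk at 0.13 to Actg2 at 3.02, while the median of all genes is -0.35.

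The genotype comparison asked whether these genes differ between PRDX1 Cys52Ser and WT livers on the diet. With all 6 libraries, 0 of the 10 genes were called higher and 0 lower in Cys52Ser by edgeR's quasi-likelihood test at a Benjamini-Hochberg adjusted p below 0.05, against 2.52% of all tested genes called higher and 2.46% called lower; 0 of the 10 had an unadjusted p below 0.05 in edgeR or in DESeq2. The fitted log2 fold change (Cys52Ser over WT) was positive for 8 genes and negative for Tagln and Smtn, with a median of 0.61 beside -0.0032 over all tested genes. It was 0.76 for Acta2 (SE 0.86, edgeR adjusted p = 0.674), 2.36 for Actg2 (SE 1.39, edgeR adjusted p = 0.400) and -0.13 for Tagln (SE 0.45, edgeR adjusted p = 0.909). The other adjusted p-values lay between these 2 ends, from 0.400 to 0.909, and the standard errors of Actg2, Cnn1 and Myh11 exceeded 1 log2 unit. The direction of Mylk depended on the scaling: its log2 fold change was 0.27 with TMM factors and -0.09 with library totals alone, where the median of all genes was -0.35. On log2(FPKM + 0.5), tested with limma, the values of Acta2, Des, Mylk and Synpo2 were -0.18, -0.14, -0.07 and -0.08, beside a median of -0.24 over all genes.

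Without Cys52Ser replicate 2, 9 of the 10 fitted log2 fold changes were negative, with a median of -0.64 beside -0.04 over all 19364 genes then tested. The genes were chosen with that library in view, and it was the highest for all 10 in TMM-scaled CPM. Leaving it out therefore lowers each Cys52Ser mean, and these fits, with their p-values, are given as a description. Acta2 had -0.80 (SE 0.29, edgeR adjusted p = 0.172), Synpo2 -1.43 (SE 0.33, edgeR adjusted p = 0.0727), Des -0.73 (SE 0.21, edgeR adjusted p = 0.111), Lmod1 -0.77, Myh11 -0.54, Cnn1 -0.51, Smtn -0.48 and Actg2 -0.47. Mylk was the exception at 0.14. Tagln was then lower in Cys52Ser by 1.83-fold (log2 fold change -0.87, SE 0.13, edgeR adjusted p = 0.0401), the 1 gene of the 10 that was called lower, and 0 were called higher; of all genes 1.12% were called lower and 1.48% higher. In 5 of the 10 genes, Acta2, Tagln, Des, Smtn and Synpo2, both remaining Cys52Ser livers lay below all 3 WT livers, as they did for 22.3% of all genes. On scales without TMM factors Lmod1 joined them, and the share of all genes was not counted on those scales. The median of the 10 was 0.97 without Cys52Ser replicate 1 and 1.03 without Cys52Ser replicate 3, and the sign of Tagln turned without either (0.12 and 0.16), as that of Smtn did without Cys52Ser replicate 3 (0.01).

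**Figure D3:**
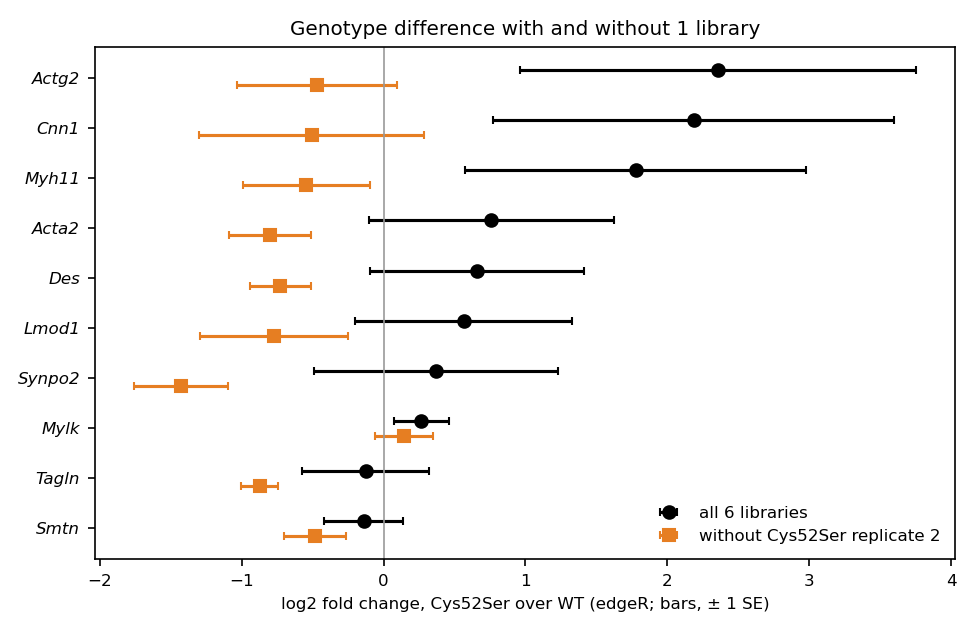
Fitted log2 fold change of each contractile gene (Cys52Ser over WT, edgeR; bars, 1 SE on each side) with all 6 libraries (black circles) and without Cys52Ser replicate 2 (orange squares). Without that library 9 of the 10 values are below 0, and Mylk is at 0.14. Actg2 lies at 2.36 with it and at -0.47 without it. That library was the highest for all 10 genes in TMM-scaled CPM, so leaving it out lowers each Cys52Ser mean.

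Marker genes of other cell types were summed per library to see what else was high in Cys52Ser replicate 2. These sums are in FPKM, with no TMM correction. The 18 gut and gallbladder epithelial markers summed to 343, 1767 and 235 FPKM in Cys52Ser livers, against 393, 221 and 305 FPKM in WT livers. Of the 16 tested, 11 were highest in Cys52Ser replicate 2, against 14.7% of all tested genes. At least 2-fold above every other library there were 9, against 2.88% of all tested genes. None of the 18 was at 0 in that library. The genotype test in edgeR called 0 of the 16, with 3 at an unadjusted p below 0.05, and DESeq2 called 2 higher, against 9.53% of 15723 genes called higher and 8.06% called lower by DESeq2. The 3 with the smallest p stood out little or not at all in that library. Pigr, the receptor that carries antibodies across epithelia, was at 973, 908 and 1215 CPM in Cys52Ser livers, against 606, 406 and 630 CPM in WT livers. It held 187, 192 and 221 FPKM of the list sums in Cys52Ser livers, against 162, 102 and 144 FPKM in WT livers. Nearly all of the sum in Cys52Ser replicate 3 was thus Pigr. Tff3, the trefoil peptide of intestinal goblet cells, was at 14.3, 3.96 and 4.13 CPM in Cys52Ser livers, against 0.594, 3.11 and 1.11 CPM in WT livers. Neither was highest in Cys52Ser replicate 2, and Lgals4, a galectin of the gut lining, was highest there by 1.09-fold. Gkn2, a gastrokine of the stomach lining, was at 50.1, 546 and 0 CPM in Cys52Ser livers, against 54.7, 32.3 and 52.3 CPM in WT livers. Tff1, a trefoil peptide of gastric mucus cells, was at 36.3, 370 and 0.172 CPM in Cys52Ser livers, against 33.8, 20.2 and 32.6 CPM in WT livers. Both were thus high in the library in which the contractile genes were high, and at or near 0 in the Cys52Ser library in which 9 of them were lowest. Among WT livers both were lowest in replicate 2, which was the highest WT library for 6 of the 10 contractile genes. Clps, the pancreatic colipase, was at 23.6, 203 and 0 CPM in Cys52Ser livers and 9.76, 15.1 and 28.9 CPM in WT livers. It was the 1 of 4 tested exocrine pancreas markers that was highest in Cys52Ser replicate 2: Cela1, an elastase, was highest in Cys52Ser replicate 1, at 16.7 CPM beside 12.6 CPM in Cys52Ser replicate 2, and Ctrl and Cela2a were highest in WT replicate 3. Cela3b and Prss2 were at 0 in Cys52Ser replicate 2, and 0 of the 4 tested were called or had an unadjusted p below 0.05 in edgeR. The 12 summed to 36.2, 289 and 3.77 FPKM in Cys52Ser livers, against 21.9, 29.2 and 49.1 FPKM in WT livers, and nearly all of the high sum was Clps: the other 11 summed to 6.29, 5.81 and 3.77 FPKM in Cys52Ser livers, against 4.71, 4.38 and 5.75 FPKM in WT livers. The part of these markers in the contractile gene values was not tested.

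Markers of striated muscle were low but also moved with that library: the sum of the 29 genes in it was 2.87-fold that of the highest other library, beside 7.31 and 3.13 FPKM in Cys52Ser replicates 1 and 3 and 5.05, 5.10 and 5.56 FPKM in WT livers. Acta1, skeletal muscle actin, was at 3.35, 12.3 and 0.0383 CPM in Cys52Ser livers, against 0.734, 1.55 and 2.04 CPM in WT livers. Of the 24 tested, 2 were called higher in Cys52Ser, Myom3 and Tnnc1, and neither was highest in Cys52Ser replicate 2. Hepatocyte markers did not single that library out: 0 of 8 were highest in it, and Cps1, an enzyme of the urea cycle, and Hnf4a, a hepatocyte transcription factor, were called higher in Cys52Ser across the 3 livers by edgeR, where DESeq2 called 7 of the 8 higher.

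**Figure D4:**
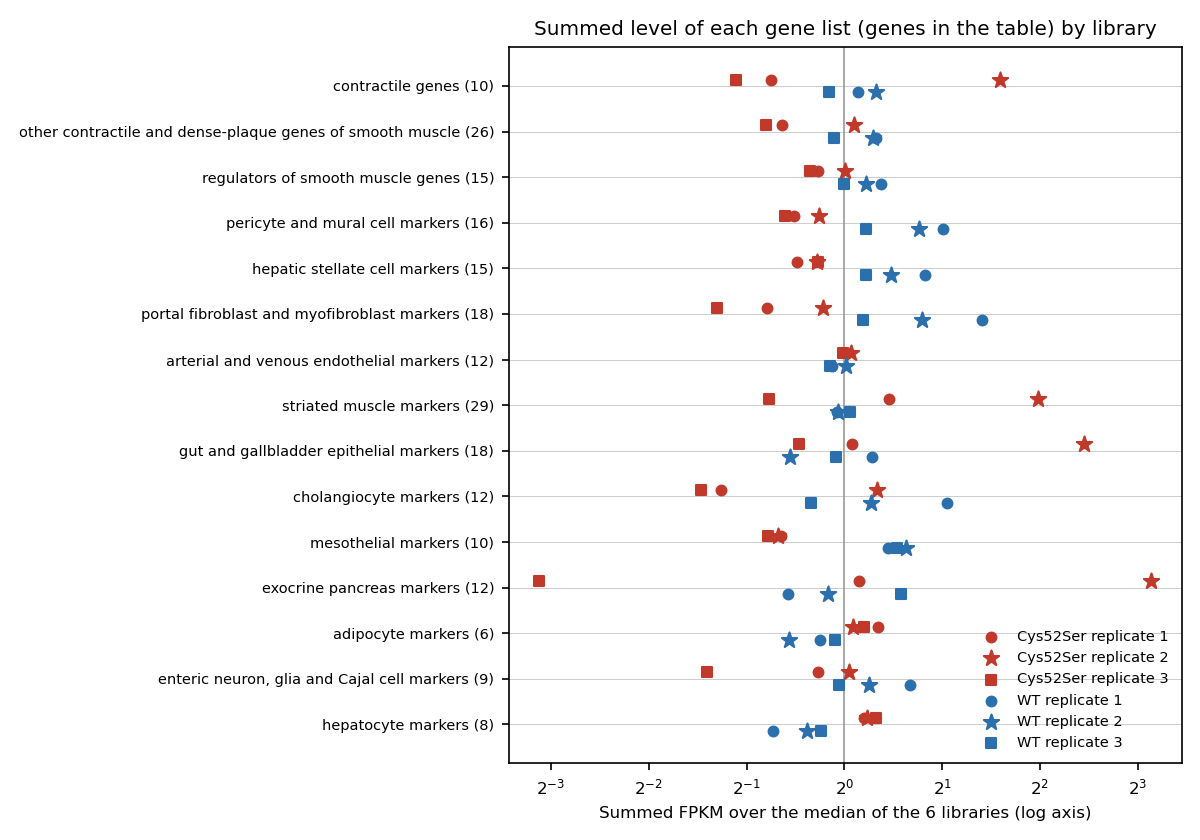
Summed FPKM of each gene list in each library, divided by the median of the 6 libraries (log axis), with Cys52Ser in red above WT in blue and the number of genes in the table in brackets. Cys52Ser replicate 2 (red star) lies far right of every other symbol for the contractile genes and the striated muscle markers. It does so too for the gut and gallbladder epithelial and the exocrine pancreas markers (there through Clps alone). For the pericyte, stellate, portal fibroblast and mesothelial markers all red symbols lie left of all WT symbols. For the mesothelial ones the red star does so through Krt8 and Krt18.

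Summed markers of the liver cells that make contractile proteins were not highest in that library, though some single markers were. It was the highest for 4 of 14 pericyte and mural cell markers, 1 of 15 stellate cell markers and 6 of 18 portal fibroblast and myofibroblast markers, against 14.7% of all tested genes. Among the pericyte markers these were Aoc3 (2.70-fold over the highest other library), Cspg4 (2.31-fold), Notch3 (1.14-fold) and Mcam (1.10-fold), named after their values were seen. The 16 pericyte and mural cell markers summed to 25.1, 29.8 and 23.5 FPKM in Cys52Ser livers, against 72.1, 60.8 and 41.8 FPKM in WT livers. Of the 14 tested, 3 were called lower and 0 higher by edgeR: Rgs5, Kcnj8 and Gucy1a1. DESeq2 called 6 of these 14 lower, 9 of the 15 stellate cell markers and 8 of the 18 portal fibroblast and myofibroblast markers, and called none of the genes of these 3 lists higher. Rgs5, a regulator of G protein signalling in pericytes, was at 42.6, 44.3 and 44.3 CPM in Cys52Ser livers, against 88.9, 101 and 66.7 CPM in WT livers (log2 fold change -0.97, SE 0.15, edgeR adjusted p = 0.0243). Its 3 Cys52Ser values lay close together and below all WT values.

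Hepatic stellate cell markers summed to 124, 143 and 144 FPKM in Cys52Ser livers, against 308, 242 and 203 FPKM in WT livers, and 6 of 15 were called lower with 0 higher, among them Ngfr, Cygb, Ednrb and Dcn. Cygb, cytoglobin, was at 17.6, 15.7 and 19.4 CPM in Cys52Ser livers, against 70.3, 46.9 and 32.2 CPM in WT livers. Ecm1 and Colec11, with Dcn the most abundant of the list per length, were not called. Ecm1 was at 59.7, 81.5 and 92.2 CPM in Cys52Ser livers, against 74.2, 58.6 and 62.1 CPM in WT livers. Its log2 fold change was 0.26 (SE 0.18, edgeR adjusted p = 0.451), and that of Colec11 was -0.37 (SE 0.12, edgeR adjusted p = 0.118). The 18 portal fibroblast and myofibroblast markers summed to 71.1, 106 and 49.9 FPKM in Cys52Ser livers, against 326, 214 and 140 FPKM in WT livers, and 4 were called lower with 0 higher, among them Dpt, Entpd2 and Col3a1. Col3a1, a fibrillar collagen, was at 282, 269 and 227 CPM in Cys52Ser livers, against 847, 662 and 458 CPM in WT livers (log2 fold change -1.34, SE 0.23, edgeR adjusted p = 0.0302). In these lists all 3 Cys52Ser sums lay below all WT sums, whereas for the contractile genes 2 of 3 did. Without Cys52Ser replicate 2 the counts of genes called lower were 0 for pericytes, 1 for stellate cells and 4 for portal fibroblasts. Those 4 did not include Dpt, Entpd2 or Col3a1, whose edgeR adjusted p was then 0.0585, 0.0633 and 0.0606. Of 23 genes outside the 10 that are named here as called, 0 were still called by edgeR without Cys52Ser replicate 1, without Cys52Ser replicate 3 or without WT replicate 2, and 8 to 16 without each of the other 3 libraries; all 23 kept their sign in these 6 fits.

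Endothelial markers differed little between libraries as FPKM sums, though single genes did differ. The 12 arterial and venous endothelial markers summed to 24.3, 25.0 and 23.7 FPKM in Cys52Ser livers, against 21.9, 24.1 and 21.6 FPKM in WT livers. Their median log2 fold change was 0.007. In edgeR 1 of 12, Cdh5, the cadherin of endothelial junctions, was called higher, and DESeq2 called 2 higher and 0 lower. Cdh5 was at 46.6, 42.8 and 52.3 CPM in Cys52Ser livers, against 22.4, 31.1 and 27.1 CPM in WT livers. Gja4 was at 11.7, 9.72 and 11.4 CPM in Cys52Ser livers, against 7.17, 5.33 and 6.83 CPM in WT livers (log2 fold change 0.76, SE 0.17, edgeR adjusted p = 0.0533). Cholangiocyte markers summed to 16.6, 50.2 and 14.5 FPKM in Cys52Ser livers, against 82.5, 48.2 and 31.5 FPKM in WT livers; Pkhd1 and Cldn7 of 12 were called lower and 0 higher. Krt19, a keratin of ductal and other simple epithelia, was at 61.7 CPM in Cys52Ser replicate 2, above the 7.77 and 5.61 CPM of the other Cys52Ser livers and the 25.4, 13.8 and 12.1 CPM of WT livers. Of the 9 mesothelial markers tested, 2 were called lower, Krt18 and Krt8, and 0 higher. These keratins, which hepatocytes and bile ducts also make, carry the list: without them the other 8 genes summed to 3.13, 7.34 and 0.812 FPKM in Cys52Ser livers, against 8.19, 6.58 and 6.31 FPKM in WT livers, with Cys52Ser replicate 2 inside the WT range. The lists of 3 adipocyte and 8 enteric neuron, glia and Cajal cell markers tested held 0 genes called by edgeR in either direction, with 2 at an unadjusted p below 0.05 in each list, and DESeq2 called 1 in each.

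Other genes of the contractile apparatus divided. Of 26 listed contractile and dense-plaque genes 25 were tested, 0 were called higher and 2 lower, with a median log2 fold change of -0.07. Of these 25, 12 were highest in Cys52Ser replicate 2, against 14.7% of all tested genes. Itga8, an integrin subunit of smooth muscle and stellate cells, was at 12.5, 9.68 and 9.46 CPM in Cys52Ser livers, against 73.9, 42.4 and 31.6 CPM in WT livers (log2 fold change -2.23, SE 0.32, edgeR adjusted p = 0.0229). Mustn1, a small muscle protein, was the other called lower, with a log2 fold change of -1.07 (SE 0.16, edgeR adjusted p = 0.0229). Cald1, Myl6 and Csrp1, the most abundant of the list per length, lay within or below the WT range in all 3 Cys52Ser livers.

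In 7 of the 25 Cys52Ser replicate 2 lay at least 2-fold above each other library, against 2.88% of all tested genes. These were Tpm2, Kcnmb1, Pgm5, Ldb3, Myl9, Synm and Pdlim3, named after their values were seen. Tpm2, the beta tropomyosin, was at 7.34, 42.8 and 9.26 CPM in Cys52Ser livers, against 7.84, 9.36 and 8.42 CPM in WT livers. Myl9, the regulatory light chain that Mylk phosphorylates, was at 7.10, 33.4 and 3.45 CPM in Cys52Ser livers, against 7.83, 11.4 and 7.33 CPM in WT livers. Synm, synemin, a partner of desmin, was at 1.88, 11.7 and 1.86 CPM in Cys52Ser livers, against 4.27, 4.85 and 3.52 CPM in WT livers. Of the other 2 Cys52Ser livers, 1 lay inside the WT range of Tpm2 and 1 below it; Synm lay below all WT livers in both, and Myl9 did so too.

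Of 14 tested regulators of the programme 0 were called in either direction by edgeR or DESeq2, and 0 had an unadjusted p below 0.05 in edgeR, with a median log2 fold change of -0.05. Srf, serum response factor, was at 19.5, 21.1 and 23.0 CPM in Cys52Ser livers, against 22.3, 24.8 and 17.3 CPM in WT livers. A pair of genes stood apart and are named after their values were seen. Klf4, a zinc finger factor of epithelia that represses contractile genes in vascular smooth muscle, was at 3.50, 25.1 and 3.98 CPM in Cys52Ser livers, against 3.84, 6.17 and 4.90 CPM in WT livers. Myocd, myocardin, was below the filter, at 0.0612, 0.276 and 0 CPM in Cys52Ser livers and 0 CPM in all 3 WT livers, where a count of 0 allows 0.0379 to 0.0520 CPM per library (3 counts).

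The close relatives of the contractile genes were measured for comparison. Actb and Actg1, the cytoplasmic actins, had log2 fold changes of 0.00 (SE 0.17, edgeR adjusted p = 0.992) and -0.13 (SE 0.18, edgeR adjusted p = 0.724), and Cys52Ser replicate 2 was not the highest library for either. Myh10, a non-muscle myosin heavy chain, was called lower, at 22.1, 19.2 and 19.8 CPM in Cys52Ser livers against 40.8, 40.5 and 33.7 CPM in WT livers (log2 fold change -0.91, SE 0.12, edgeR adjusted p = 0.0174). Tagln2, the relative of transgelin outside muscle, was also called lower, at 53.1, 71.6 and 56.1 CPM in Cys52Ser livers against 120, 115 and 86.2 CPM in WT livers (log2 fold change -0.83, SE 0.17, edgeR adjusted p = 0.0433). Vim, vimentin, was at 177, 313 and 143 CPM in Cys52Ser livers, against 321, 241 and 229 CPM in WT livers, the same arrangement of the Cys52Ser libraries as for Des but with replicate 2 below the highest WT value.

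The genes most like the contractile genes were sought among 13285 others with a mean of at least 1 CPM, by Pearson's r over the 6 libraries with the mean z-score of the 10. The closest was Top2a, a topoisomerase of dividing cells (r = 0.997), then Anln, anillin of the cleavage furrow (r = 0.995), Ercc1, a DNA repair nuclease subunit (r = 0.993), Slc30a4, a zinc transporter (r = 0.990), Cyp4f39 (r = 0.990), Mast4, Glo1-ps, Ppp2r2a, Phgdh and Krt80 (r = 0.982). Top2a was at 14.3, 31.3 and 12.5 CPM in Cys52Ser livers, against 16.8, 18.0 and 15.8 CPM in WT livers. Over the 5 libraries without Cys52Ser replicate 2 its r was 0.984, and that of Phgdh, the lowest of the 10, was 0.928. With so few libraries and so many genes, such values describe the pattern and are given with no p.

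The genes in which Cys52Ser replicate 2 stood out furthest, by the same filter, were Hmga2, Sema3a, Lypd5, Prkg2, Psapl1, Mt4, Psca, Avil, Kprp and Sptssb, all ahead of Actg2. Psca, a surface protein of stomach and bladder epithelium, was at 12.2, 132 and 0 CPM in Cys52Ser livers, against 10.1, 8.57 and 11.6 CPM in WT livers.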

How the data were processed

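Per the labels' protocols, liver RNA was selected with oligo(dT) beads and made into strand-marked libraries with molecular identifiers. Tools in the submitters' processing notes, which give no roles, are StringTie 1.3.4d, HISAT2 2.0.4, cutadapt 1.9, edgeR, DESeq2 and UMI-tools. The notes name mm9, yet positions in the table are those of GRCm38, since 25674 of 28524 gene identifiers found in GENCODE M21 (90.0%) had the same position there. Per the file headers, the deposited values per gene and library are an estimated count and an FPKM, which the authors scaled to transcript length and library size. The counts were whole numbers and were used without rounding; no source used here says how they were estimated, so they may not be exact read counts.

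edgeR 4.0.16 in R 4.3.3 (TMM factors; filterByExpr, minimum count 10; robust quasi-likelihood fits on genotype alone) was run over 18648 genes, with Benjamini-Hochberg adjustment at 0.05. The standard error is the log2 fold change divided by the square root of F. Alternatives were DESeq2 1.42.0 on the same counts, limma 3.58.1 on log2 of the deposited FPKM plus a pseudocount, other scalings and filters, and each library left out. Each test was tried on simulated data. Groups came from the titles, with 3 mice each. The p-values set the genotype difference against the spread between mice. No 2 libraries of a group agreed within sampling noise (chi-square per degree of freedom 86.9 or more). The members and the gene lists were chosen with earlier results of these data known. Genes outside the members were named by rule: in each list the 3 with the smallest p and the 3 most abundant per length, the 10 most like the members, the 10 in which Cys52Ser replicate 2 stood out most, and paralogs; others are said to be named after their values were seen.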

Additional observations from a re-analysis of the deposited data

How the results depend on the processing

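Over the 19 alternatives tried, 37 of 190 single-gene values turned their sign and 4 passed the threshold, for 3 genes. Those 4 were all in fits without Cys52Ser replicate 2. The cause of these changes was not tested. Over all genes 928 were called, 50.5% of them higher. With library totals alone 3017 were called (9.71% higher, all-gene median -0.35), by DESeq2 2766 (54.2% higher), and by limma 2820, 2908 and 2686 on log2(FPKM + 0.5), (FPKM + 0.1) and (FPKM + 1) (11.4%, 11.1% and 11.8% higher). Leaving out 1 library gave 28 to 790 calls: 31, 504 and 28 without Cys52Ser replicates 1, 2 and 3, and 409 and 57 when WT replicate 1 or 2 was dropped. None of the 10 genes was called higher under any of these, and 0 to 1 were called lower when 1 library was left out. Their median ranged from -0.64 to 1.03 with 1 library left out, and was -0.071, -0.14 and -0.042 with limma on the 3 FPKM scales (pseudocounts 0.5, 0.1 and 1) and -0.071 without the FPKM filter.

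On these 4 limma settings in that order, Acta2 was at -0.18, -0.22, -0.15 and -0.18, Des at -0.14, -0.19, -0.088 and -0.14, Mylk at -0.065, -0.069, -0.061 and -0.065, Synpo2 at -0.077, -0.36, -0.023 and -0.077, and Lmod1 at -0.097 with the pseudocount of 0.1. Mylk was at -0.092 with library totals. With 1 library left out, the lowest value was that without Cys52Ser replicate 2 for all but Mylk: Acta2 ranged from -0.80 to 1.22, Actg2 from -0.47 to 2.98, Cnn1 from -0.51 to 2.79, Des from -0.73 to 1.06, Lmod1 from -0.77 to 0.997, Myh11 from -0.54 to 2.30, Synpo2 from -1.43 to 0.81, Tagln from -0.87 to 0.16 and Smtn from -0.48 to 0.015. An alternative chosen after seeing the data left out Cys52Ser replicate 2 and used library totals. Of 19364 genes 1885 were called, 8.38% of them higher, with 1727 called lower. Of the 10 genes 3 were called lower: Tagln at -1.28 (edgeR adjusted p = 0.0342), Des at -1.15 (edgeR adjusted p = 0.0494) and Synpo2 at -1.86 (edgeR adjusted p = 0.0423). The median of the 10 was then -1.04 beside -0.45 over all genes, with Acta2 at -1.20, Myh11 -0.93, Cnn1 -0.88, Actg2 -0.86, Lmod1 -1.17 and Mylk -0.29.

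The median excess of Cys52Ser replicate 2 was 0.84, 1.03 and 0.73 on the 3 FPKM scales and 1.44 to 1.79 with 1 of the other libraries left out; it takes no value without that library and was not recomputed under the other tests, the filters and the block. Replicate numbers are shared between the groups, but same-numbered livers did not deviate together (correlations -0.039, 0.137 and 0.018), so the numbers were not taken as pairs. With the replicate block 729 genes were called, the median of the 10 was 0.12 and Synpo2 was at -0.40. Cnn1 rested on 29 estimated counts in Cys52Ser replicate 3 and Lmod1 on 35.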

Other observations

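Genes of stomach glands and of stratified squamous epithelium, listed after their values were seen, had the same library as their highest. The 7 stomach gland genes in the table summed to 102, 1141 and 0.332 FPKM in Cys52Ser livers, against 90.9, 88.0 and 168 FPKM in WT livers, and 7 of 7 were highest in Cys52Ser replicate 2. Pgc, the precursor of a gastric protease, was at 142, 1521 and 0.0766 CPM in Cys52Ser livers, against 94.2, 106 and 199 CPM in WT livers. Atp4b, a subunit of the acid pump of parietal cells, was at 6.95, 74.9 and 0 CPM in Cys52Ser livers, against 4.59, 4.69 and 9.13 CPM in WT livers. In Cys52Ser replicate 3, 4 of the 7 were at 0.

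The 17 squamous epithelial genes summed to 43.1, 532 and 2.24 FPKM in Cys52Ser livers, against 22.7, 97.5 and 57.0 FPKM in WT livers, and 17 of 17 were highest in Cys52Ser replicate 2. Krt13, a keratin of lining epithelia such as the oesophagus and forestomach, was at 8.48, 113 and 0.0766 CPM in Cys52Ser livers, against 3.33, 14.8 and 7.31 CPM in WT livers. Among WT livers, replicate 2 had the highest sum of the squamous genes but the lowest of the stomach gland genes and of the gut and gallbladder markers (221 FPKM, against 393 and 305 FPKM in WT replicates 1 and 3). The part of these genes in the contractile gene values was not tested.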
